A study of Mus musculus with 18 samples.

Results

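The genes described are 9 that mark monocytes and macrophages in the mouse: the chemokine receptors Ccr2 and Cx3cr1, the growth factor receptor Csf1r, the Fc receptor Fcgr1, the adhesion receptor Adgre1, the surface protein Ly6c2, the lysosomal glycoprotein Cd68 and the lysozymes Lyz2 and Lyz1. They were taken by symbol out of the 53946 genes of the expression table. All 9 passed the filter on low counts that left 16233 genes for testing, although Fcgr1, Lyz1 and Cx3cr1 were near its lower end in some groups.

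The series holds 18 mouse samples on a C57BL/6 background, of which 12 are RNA-seq libraries in 4 groups of 3, 2 are ChIP-seq libraries for trimethylated lysine 36 of histone H3 (H3K36me3) and 4 are whole-genome bisulfite libraries, 1 for each RNA group. AML denotes C-Kit+ spleen cells of NHD13/Setd2 KO mice at the leukemia stage. KO denotes hematopoietic stem and progenitor cells (HSPCs) of NHD13/Setd2 KO bone marrow, in which Setd2 was deleted with Mx1-Cre. NHD13 denotes HSPCs of NHD13/Setd2 flox/flox bone marrow, and WT denotes HSPCs of C57BL/6 bone marrow. AML, KO and NHD13 all carry the NUP98-HOXD13 fusion transgene, and WT carries neither the transgene nor the floxed alleles. For ChIP, C-Kit+ cells were taken from the spleen of NHD13/Setd2 KO leukemia (KO AML) and of NHD13 leukemia (NHD13 AML). The Mx1 promoter responds to interferon and is active in many cell types, so deletion by this Cre is not limited to blood cells. AML differs from the marrow groups in tissue and in sorting gate as well as in disease stage, and these cannot be told apart. The labels used here state neither ages nor whether replicates are different mice. Each p-value therefore refers to the variation among these 12 libraries, and that variation may be technical.

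Monocytes form in the marrow from myeloid progenitors, and the transcription factors PU.1 and IRF8 are known to drive that choice against the neutrophil one. The classical monocyte carries Ly6C and CCR2, and needs CCR2 to leave the marrow, whereas the patrolling monocyte of the vessel wall carries CX3CR1. CSF1R signalling keeps macrophages alive, and F4/80, CD64 and CD68, the products of Adgre1, Fcgr1 and Cd68, are used to recognise them. Lysozyme breaks bacterial cell walls, and Lyz2 is also strongly expressed in neutrophils and their precursors, so it is not specific to monocytes.

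The 4 upstream sequences printed next, each the 250 bases before the transcription start in the RefSeq promoter table of GRCm38.p6, are those of the genes whose levels or methylation the results turn on. RefSeq entries were matched for 7 of the 9 genes, all but Csf1r and Adgre1. Lyz2 and Lyz1 are neighbouring paralogs on the minus strand of chromosome 10, and capitals mark the bases that differ between them in a global alignment. They were identical at 200 of 252 aligned positions (79.4%), and the bases closest to the start were the same in both.
Lyz2, chr10:117282273-117282522, minus strand: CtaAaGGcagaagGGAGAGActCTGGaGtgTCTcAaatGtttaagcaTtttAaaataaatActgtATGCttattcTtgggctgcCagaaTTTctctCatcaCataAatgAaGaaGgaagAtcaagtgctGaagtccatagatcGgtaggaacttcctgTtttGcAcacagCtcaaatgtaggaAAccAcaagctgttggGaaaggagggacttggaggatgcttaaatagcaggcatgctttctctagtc
Lyz1, chr10:117292869-117293118, minus strand: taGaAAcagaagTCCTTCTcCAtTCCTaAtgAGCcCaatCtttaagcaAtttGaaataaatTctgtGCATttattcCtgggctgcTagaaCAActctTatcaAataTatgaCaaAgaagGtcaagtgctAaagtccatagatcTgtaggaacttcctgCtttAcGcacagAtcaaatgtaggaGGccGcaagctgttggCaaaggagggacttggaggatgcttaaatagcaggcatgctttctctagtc
For Ly6c2, which with Lyz2 was the most abundant of the 9 RNAs, capitals mark the PU.1 core GAGGAA, and the window held 0 CG dinucleotides.
Ly6c2, chr15:75111972-75112221, minus strand: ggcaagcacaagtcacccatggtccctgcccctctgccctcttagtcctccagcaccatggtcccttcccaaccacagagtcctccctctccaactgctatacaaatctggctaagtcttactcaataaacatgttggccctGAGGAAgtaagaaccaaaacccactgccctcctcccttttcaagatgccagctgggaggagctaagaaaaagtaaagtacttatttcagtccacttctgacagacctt
For Cd68, whose start lay inside a region of changed methylation, capitals mark the 4 CG dinucleotides.
Cd68, chr11:69666171-69666420, minus strand: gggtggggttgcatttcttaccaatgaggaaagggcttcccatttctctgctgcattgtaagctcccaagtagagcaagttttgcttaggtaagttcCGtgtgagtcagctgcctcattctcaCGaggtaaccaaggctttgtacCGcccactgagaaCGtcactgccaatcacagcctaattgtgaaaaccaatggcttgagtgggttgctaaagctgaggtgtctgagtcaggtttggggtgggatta

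The windows were searched on both strands for GAGGAA (PU.1), TTGCNNAA (C/EBP), TGANTCA (AP-1) and the core of the interferon response element, which were present in 23.1%, 9.55%, 6.87% and 3.04% of 27025 windows of the same length. Cd68 held 1 PU.1, 1 C/EBP and 2 AP-1 cores, Ly6c2 and Fcgr1 held 1 PU.1 core each, and Lyz1 held 1 C/EBP core. No match overlapped another. The Cd68 AP-1 cores began 149 and 24 bases before the start, and the PU.1 core of Fcgr1 began 55 bases before it. The windows of Ccr2, Cx3cr1 and Lyz2 held 0 of these 4 motifs. The windows were poor in CG, with 4 in Cd68 and Cx3cr1, 2 in Lyz1, 1 each in Ccr2, Fcgr1 and Lyz2 and 0 in Ly6c2, against a median of 6 over all windows.

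Libraries held 18673704 to 20577958 counts in AML, 20436804 to 28127686 in KO, 22243002 to 24766705 in NHD13 and 22115101 to 23767776 in WT. Setd2, the targeted gene, averaged 226 CPM (counts scaled to a common library total) in AML, 30.1 CPM in KO, 27.3 CPM in NHD13 and 44.9 CPM in WT. KO and NHD13 did not differ by the test (log2 -0.05 ± 0.08 SE, 95% interval -0.22 to 0.13, adjusted p = 0.685). Reads were summed over the gene, which leaves a deleted exon out of sight, so the level does not check the KO label, and KO in this text stands for the label. Xist, the RNA of the inactive X chromosome, averaged 0.0173 CPM in AML, 0.0590 CPM in KO, 77.0 CPM in NHD13 and 185 CPM in WT. Eif2s3y, on the Y chromosome, stood at 84.7 CPM in AML, 55.6 CPM in KO, 0.0135 CPM in NHD13 and 0 CPM in WT. The sex of the mice therefore changes together with the KO label, and sex and label cannot be told apart in any comparison of AML or KO with NHD13 or WT. All 11 markers of progenitors, among them Kit, Cd34 and Flt3, were detected in each group, with a summed level of 867 to 892 CPM in AML, 447 to 478 CPM in KO, 92.2 to 97.3 CPM in NHD13 and 984 to 1080 CPM in WT. The sum over 8 neutrophil markers was 28173 to 28983 CPM in AML, 48454 to 51391 CPM in KO, 113945 to 126116 CPM in NHD13 and 27779 to 32535 CPM in WT. These are bulk libraries of sorted cells, so fewer cells of a type and less RNA per cell cannot be told apart.

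The 9 genes did not move as one block. Ccr2, Cx3cr1, Csf1r and Cd68 were lower in NHD13 than in WT and higher in KO than in NHD13, whereas Lyz2, Lyz1, Ly6c2 and Adgre1 did the opposite in both comparisons. Fcgr1 did not pass for NHD13 against WT and was higher in KO than in NHD13. Levels are given next as FPKM (fragments per kilobase of gene, scaled to a common library total), the values the authors deposited, in the order of the replicates. The differences are log2 fold changes ± SE of edgeR's quasi-likelihood test on the raw counts, and pass where the Benjamini-Hochberg adjusted p over all tested genes is below 0.05. The test scales libraries by TMM factors and FPKM does not, so the 2 scales can give different differences for the same gene.

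**Figure D1:**
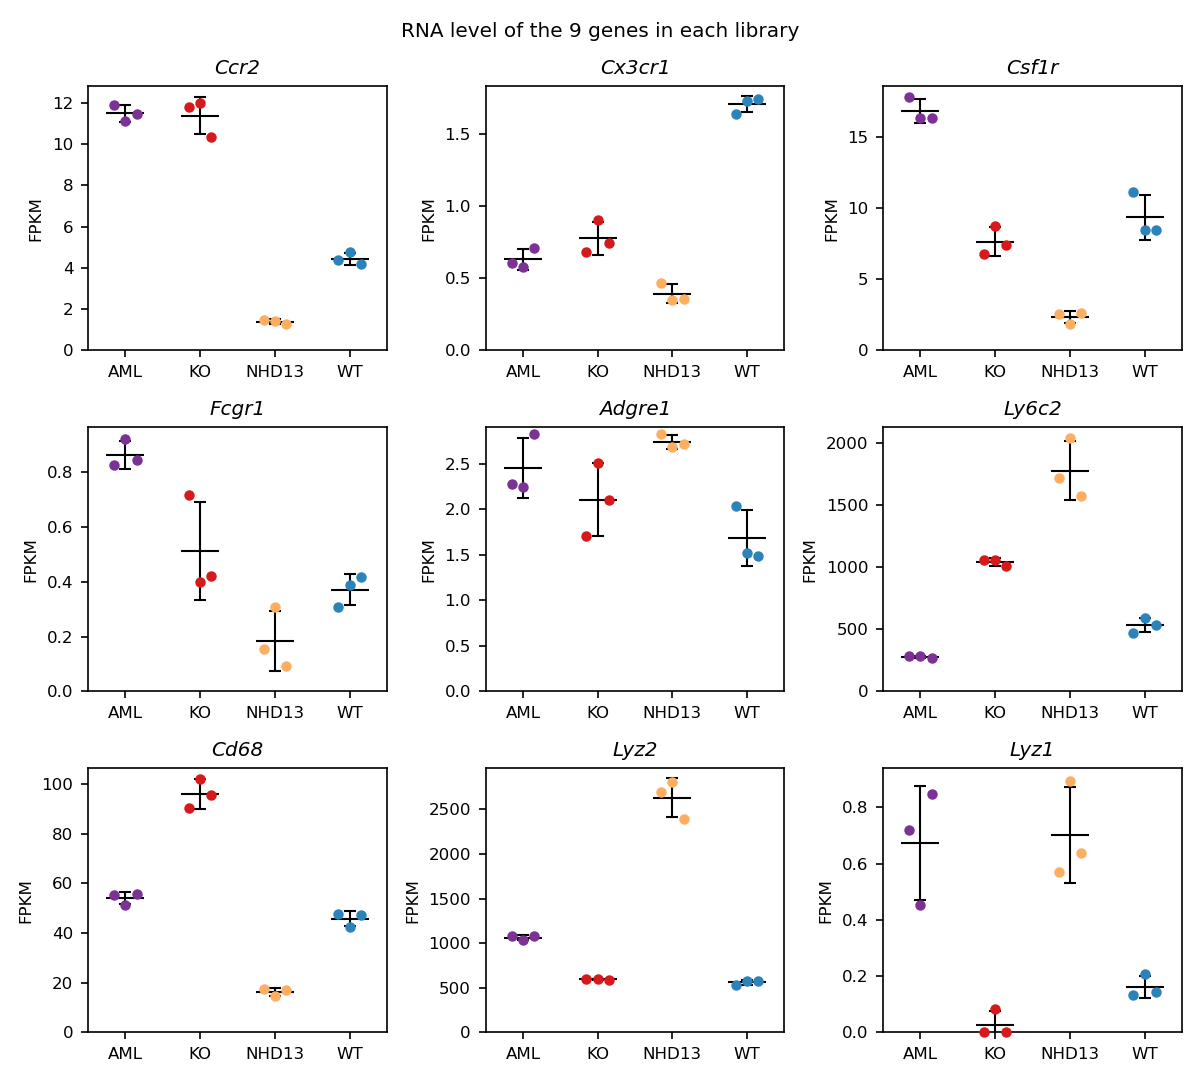
Level in FPKM (vertical axis, from 0) of each of the 9 genes in the 3 libraries of AML, KO, NHD13 and WT; points are libraries, and the line and bar give the mean and SD (n = 3). Ccr2 is near 11.5 FPKM in AML and 11.4 FPKM in KO and 1.38 FPKM in NHD13, while Lyz2 reaches 2632 FPKM in NHD13 and 560 FPKM in WT.

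Ccr2 encodes the receptor for the chemokine CCL2, which draws classical monocytes out of the marrow. It stood at 11.9, 11.1 and 11.5 FPKM in the AML libraries, 11.8, 12.0015 and 10.4 FPKM in KO, 1.49, 1.40 and 1.26 FPKM in NHD13 and 4.38, 4.76 and 4.20 FPKM in WT. AML and KO overlapped, and both lay above every WT library, which lay above every NHD13 library. The gene was 2.46-fold lower in NHD13 than in WT (log2 -1.30 ± 0.09, adjusted p = 3.61e-10), and 7.23-fold higher in KO than in NHD13 (log2 2.85 ± 0.09, adjusted p = 7.27e-15). It was also 2.94-fold higher in KO than in WT (log2 1.55 ± 0.08, adjusted p = 2.60e-11). AML was lower than KO on the count scale (log2 -0.40 ± 0.08, adjusted p = 9.09e-05) but not on the FPKM scale, where the difference was 0.015 in log2(FPKM + 1) with an adjusted p of 0.846. With a correction for gene length the difference was larger (log2 -1.27, adjusted p = 3.55e-12).

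Cx3cr1, the fractalkine receptor of patrolling monocytes and microglia, was low throughout. It stood at 0.606, 0.577 and 0.712 FPKM in AML, 0.684, 0.908 and 0.747 FPKM in KO, 0.469, 0.353 and 0.359 FPKM in NHD13 and 1.64, 1.73 and 1.75 FPKM in WT. Every WT library was above all 9 libraries with the transgene. The gene was lower in NHD13 than in WT (log2 -1.74 ± 0.17, adjusted p = 7.33e-08), higher in KO than in NHD13 (log2 0.81 ± 0.18, adjusted p = 0.00133) and lower in KO than in WT (log2 -0.92 ± 0.16, adjusted p = 0.000127). It was lower in AML than in KO (log2 -0.72 ± 0.17, adjusted p = 0.000899), a call that was lost on the FPKM scale (adjusted p = 0.0764 in log2(FPKM + 1)).

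Csf1r encodes the receptor for CSF1 and interleukin 34. It stood at 17.8, 16.4 and 16.4 FPKM in AML, 6.79, 8.74 and 7.45 FPKM in KO, 2.53, 1.88 and 2.63 FPKM in NHD13 and 11.2, 8.45 and 8.46 FPKM in WT. AML was the highest group, KO and WT overlapped, and NHD13 was below all other libraries. The gene fell in NHD13 relative to WT (log2 -1.61 ± 0.13, adjusted p = 1.20e-08) and rose in KO relative to NHD13 (log2 1.53 ± 0.13, adjusted p = 4.33e-08). KO and WT did not differ by the test (log2 -0.09, 95% interval -0.33 to 0.16, adjusted p = 0.603). Csf1r was higher in AML than in KO (log2 0.72 ± 0.12, adjusted p = 2.29e-05), a call lost with a correction for gene length (log2 0.18, adjusted p = 0.112).

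Fcgr1 encodes CD64, the high-affinity receptor for immunoglobulin G. Its level was 0.827, 0.923 and 0.845 FPKM in AML, 0.718, 0.398 and 0.422 FPKM in KO, 0.156, 0.307 and 0.0936 FPKM in NHD13 and 0.309, 0.387 and 0.419 FPKM in WT. KO and WT overlapped, with KO replicate 1 well above the other 2 KO libraries. With 34 counts over the 3 NHD13 libraries and 66 over the 3 WT libraries, the difference between them did not pass (log2 -0.61 ± 0.39, 95% interval -1.44 to 0.22, adjusted p = 0.207). It passed on the FPKM scale (adjusted p = 0.0444 in log2(FPKM + 1) and 0.0224 in log2(FPKM + 0.1)), and without NHD13 replicate 2 (log2 -1.20, adjusted p = 0.0275). Fcgr1 was higher in KO than in NHD13 (log2 1.25 ± 0.38, adjusted p = 0.0125). That call was lost without KO replicate 1 (log2 0.95, adjusted p = 0.0791), without NHD13 replicate 1 (log2 1.14, adjusted p = 0.0526) and without NHD13 replicate 3 (log2 0.91, adjusted p = 0.0749), and without NHD13 replicate 2 the difference was larger (log2 1.85). AML and KO did not differ by the test (log2 0.36 ± 0.31, adjusted p = 0.291), but AML was higher on the FPKM scale (adjusted p = 0.00496 in log2(FPKM + 1)).

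Adgre1 encodes F4/80, the surface protein by which mouse macrophages are usually recognised, and it spans 124949 bases of chromosome 17. It stood at 2.28, 2.24 and 2.83 FPKM in AML, 1.70, 2.51 and 2.102 FPKM in KO, 2.83, 2.68 and 2.71 FPKM in NHD13 and 2.04, 1.52 and 1.49 FPKM in WT. NHD13 lay above WT and KO without overlap, and AML overlapped both NHD13 and KO. The gene was higher in NHD13 than in WT (log2 1.09 ± 0.15, adjusted p = 8.26e-06) and lower in KO than in NHD13 (log2 -0.56 ± 0.15, adjusted p = 0.00600), the second call being lost on the FPKM scale (adjusted p = 0.0646). It was higher in KO than in WT (log2 0.53 ± 0.16, adjusted p = 0.0124), but not past the threshold without KO replicate 2 (log2 0.41, adjusted p = 0.0808) or on the FPKM scale (adjusted p = 0.156). AML and KO did not differ by the test (log2 -0.20 ± 0.15, adjusted p = 0.229), but AML was lower with upper-quartile factors (log2 -0.39, adjusted p = 0.0236).

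Ly6c2 encodes the Ly6C antigen that is high on classical monocytes and on some myeloid precursors. It stood at 286, 282 and 272 FPKM in AML, 1062, 1059 and 1008 FPKM in KO, 1721, 2042 and 1574 FPKM in NHD13 and 475, 590 and 534 FPKM in WT. No groups overlapped. The gene was 4.36-fold higher in NHD13 than in WT (log2 2.12 ± 0.10, adjusted p = 8.43e-12), 1.94-fold lower in KO than in NHD13 (log2 -0.96 ± 0.10, adjusted p = 3.68e-07) and 4.96-fold lower in AML than in KO (log2 -2.31 ± 0.10, adjusted p = 4.48e-13). KO was still above WT (log2 1.17 ± 0.10, adjusted p = 6.42e-08), and AML was below WT (log2 -1.15 ± 0.10, adjusted p = 5.74e-09). The paralog Ly6c1, carried mostly by endothelial and lymphoid cells, had 13, 41, 111 and 90 counts over the 3 libraries of AML, KO, NHD13 and WT, or 2.90, 2.01, 3.21 and 8.97 counts for every 10000 of Ly6c2. Reads from these near-identical genes can be confused, and how far that affects the counts of either was not tested.

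Cd68 encodes macrosialin, a lysosomal membrane glycoprotein of macrophages. It stood at 55.4, 51.3 and 55.8 FPKM in AML, 90.3, 102 and 95.7 FPKM in KO, 17.6, 14.5 and 17.1 FPKM in NHD13 and 47.9, 42.5 and 47.2 FPKM in WT. No groups overlapped, and KO was the highest. The gene was lower in NHD13 than in WT (log2 -1.10 ± 0.08, adjusted p = 4.66e-10), 5.16-fold higher in KO than in NHD13 (log2 2.37 ± 0.08, adjusted p = 1.45e-14) and 2.40-fold higher in KO than in WT (log2 1.27 ± 0.07, adjusted p = 1.23e-10). It was lower in AML than in KO (log2 -1.24 ± 0.07, adjusted p = 6.60e-12), a call lost with a correction for gene length (log2 -0.15, adjusted p = 0.0820).

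Lyz2, the lysozyme of macrophages and granulocytes, was among the most abundant RNAs. It stood at 1077, 1034 and 1082 FPKM in AML, 602, 595 and 588 FPKM in KO, 2697, 2809 and 2390 FPKM in NHD13 and 531, 573 and 575 FPKM in WT. Of the tested genes, 99.9% had a lower mean FPKM than Lyz2 in NHD13 and 99.3% in WT. It was 6.14-fold higher in NHD13 than in WT (log2 2.62 ± 0.07, adjusted p = 7.34e-16) and 5.04-fold lower in KO than in NHD13 (log2 -2.33 ± 0.07, adjusted p = 7.87e-15). It was higher in AML than in KO (log2 0.43 ± 0.07, adjusted p = 1.39e-05), by an amount that depended on the scale, with 1.48 after a correction for gene length and 0.24 with upper-quartile factors. KO was above WT by a small amount (log2 0.29 ± 0.07, adjusted p = 0.00287) that was not past the threshold on the FPKM scale (0.09 in log2(FPKM + 1), adjusted p = 0.293).

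Lyz1, the lysozyme best known from Paneth cells of the intestine, was close to the limit of detection. Its counts were 17, 11 and 22 in AML, 0, 3 and 0 in KO, 16, 27 and 20 in NHD13 and 4, 6 and 4 in WT. As shares of the library totals, the counts of KO and NHD13 had a ratio of 0.0473 (95% interval 0.00949 to 0.145), those of AML and KO a ratio of 20.4 (6.58 to 102) and those of NHD13 and WT a ratio of 4.37 (2.42 to 8.44), where the intervals are exact and cover counting error only. The test called Lyz1 higher in NHD13 than in WT (adjusted p = 0.000343), lower in KO than in NHD13 (adjusted p = 2.16e-05) and higher in AML than in KO (adjusted p = 5.87e-05). All 3 counts of KO lay in replicate 2, and without that library KO had 0 counts and was also called lower than WT (adjusted p = 0.0143, against 0.0822 with it). The same call was made with all libraries in log2(FPKM + 0.1) (adjusted p = 0.00953). For every 10000 counts of Lyz2 there were 6.10 of Lyz1 in AML, 0.537 in KO, 2.57 in NHD13 and 2.76 in WT. Reads of the 2 lysozyme genes can be confused, and how far the low Lyz1 counts come from Lyz2 was not tested.

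**Figure D2:**
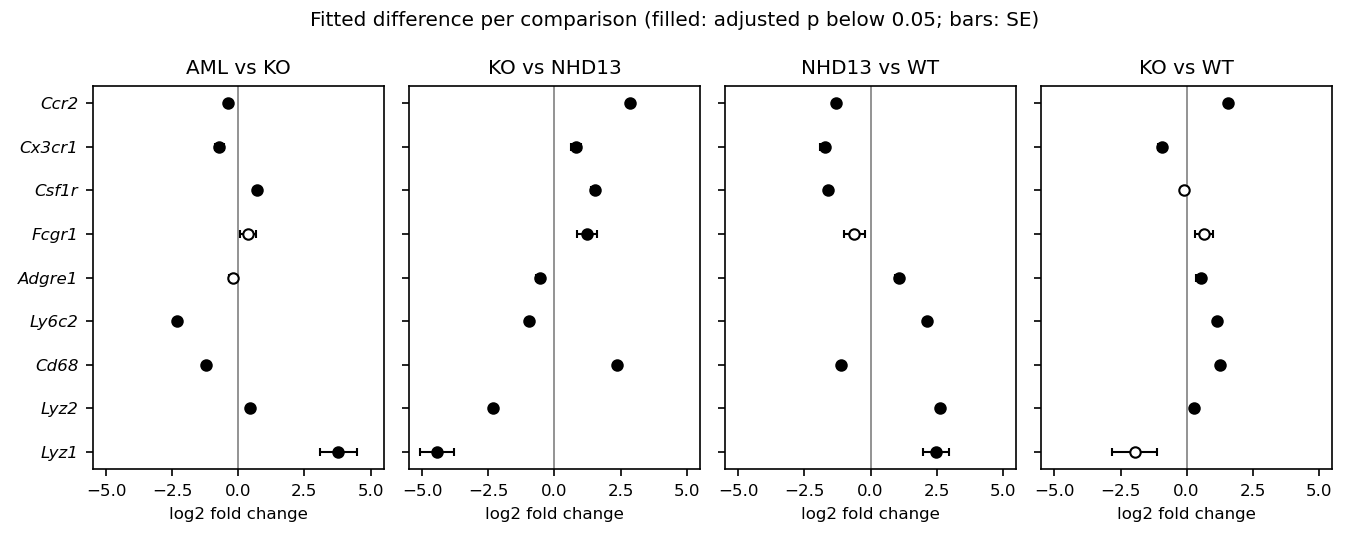
Log2 fold change (horizontal axis) ± SE of each gene for AML against KO, KO against NHD13, NHD13 against WT and KO against WT; filled points have an adjusted p below 0.05 and open points do not. Ccr2, Cx3cr1, Csf1r and Cd68 lie left of 0 for NHD13 against WT and right of 0 for KO against NHD13, and Adgre1, Ly6c2, Lyz2 and Lyz1 lie on the other side in both.

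Counted over comparisons, 4 of the 9 genes were higher in NHD13 than in WT, where 25.3% of all tested genes were, and 4 were lower, where 28.7% were, out of 54.0% called in either direction. In KO against NHD13, 5 were higher (20.6% of all genes) and 4 lower (20.3% of all genes), where 40.9% of all genes were called. In AML against KO, 3 were higher (42.8% of all genes) and 4 lower (39.5% of all genes), where 82.4% were called, so the members' share is near the background. That split was 4 higher and 2 lower in log2(FPKM + 1) and 2 higher and 3 lower with a correction for gene length. In KO against WT, 5 were higher (17.2% of all genes) and 1 lower, where 37.1% were called in either direction. The median log2 fold change of the 9 genes was -0.61, 0.81, -0.20 and 0.53 in these 4 comparisons, and that of all tested genes was -0.04, 0.02, 0.07 and -0.01. NHD13 against WT and KO against NHD13 share the NHD13 libraries, so opposite signs in the 2 comparisons are not independent observations. The comparison of KO with WT does not contain NHD13, and there Ccr2, Adgre1, Ly6c2, Cd68 and Lyz2 were higher, Cx3cr1 was lower, and Csf1r, Fcgr1 and Lyz1 did not pass. A pair of comparisons was added after seeing the data, to order the levels. In AML against NHD13, 4 genes were higher and 3 lower, where 43.3% of all genes were higher, 39.1% lower and 82.4% called. In AML against WT, 5 were higher and 2 lower, where 41.7% of all genes were higher, 43.0% lower and 84.7% called. By these tests the neighbouring groups in the order of CPM differed for all pairs of Ly6c2 (NHD13, KO, WT, AML), Lyz2 (NHD13, AML, KO, WT) and Ccr2 (KO, AML, WT, NHD13). The limits given above apply to KO against WT for Lyz2 and to AML against KO for Ccr2. For Ccr2 the difference of AML from WT was log2 1.15, and 0.30 with a correction for gene length (adjusted p = 0.00145). For Cd68 the order was KO, AML, WT and NHD13, in which AML and WT did not differ by the test (log2 0.03), although AML was higher with a correction for gene length (log2 1.13, adjusted p = 3.31e-11). For Csf1r it was AML, WT, KO and NHD13, in which WT and KO did not differ, and the difference of AML from WT (log2 0.63) was lost with the correction for gene length (log2 0.09, adjusted p = 0.399).

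In NHD13 against WT and KO against NHD13, which share the NHD13 libraries, Lyz2, Lyz1, Ly6c2 and Adgre1 moved with the neutrophil markers. All 18 genes of a longer neutrophil list were higher in NHD13 than in WT, where 25.3% of all genes were higher. All 18 were lower in KO than in NHD13 (17 in log2(FPKM + 1)), where 20.3% of all genes were lower. The medians were 3.14 and -1.86 in log2 beside -0.04 and 0.02 over all genes. Camp, the cathelicidin gene of secondary granules, had log2 7.40 ± 0.11 and -4.81 ± 0.09 in these comparisons. In KO against WT, which does not contain NHD13, all 18 were higher (17 in log2(FPKM + 1)), where 17.2% of all genes were, with a median log2 of 1.12. Lyz2, Ly6c2 and Adgre1 were higher there and Lyz1 did not pass, while Ccr2 and Cd68 were also higher. In AML against KO, 12 of the 18 were higher and 6 lower (median log2 1.49), where 42.8% of all genes were higher and 39.5% lower. The sum over the 8 markers was lower in AML, and Lyz2 was higher and Ly6c2 lower there. In AML against WT, 13 of the 18 were higher and 5 lower (median log2 2.81), where 41.7% of all genes were higher and 43.0% lower. The sums of AML and WT overlapped, and Lyz2 was higher (log2 0.71 ± 0.07) and Ly6c2 was 2.21-fold lower in AML than in WT. The part of neutrophil precursors in the levels of Lyz2 and Ly6c2 was not tested.

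The pattern of each gene over the 12 libraries was compared with that of all genes with at least 10 CPM in their highest group. The most similar patterns, by Pearson r of log2 CPM, were Mecom for Ccr2 (0.989), Dctd for Cx3cr1 (0.980), Rftn1 for Csf1r (0.992), Tmem106b for Fcgr1 (0.934), Tmem119 for Adgre1 (0.961), Esco2 for Ly6c2 (0.996), St8sia6 for Cd68 (0.980), Wfdc21 for Lyz2 (0.999) and Pdlim2 for Lyz1 (0.953). The 12 points form 4 groups of replicates, so these values mainly compare 4 group levels and do not rest on 12 independent points. Among the 9 genes themselves, Ccr2 and Cd68 were most alike (0.895), and Adgre1 and Lyz2 had 0.844, while Csf1r ran against Ly6c2 (-0.902).

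Of the ligands of these receptors, 3 of the 6 listed genes had enough counts to test. Ccl2, the ligand of CCR2, was lower in NHD13 than in WT (log2 -1.07 ± 0.24, adjusted p = 0.000919), higher in KO than in NHD13 (log2 1.52 ± 0.24, adjusted p = 3.57e-05) and lower in AML than in KO (log2 -2.20 ± 0.24, adjusted p = 1.13e-07), at levels of 0.831 CPM in AML, 3.85 CPM in KO, 1.33 CPM in NHD13 and 2.80 CPM in WT. Cx3cl1, the ligand of CX3CR1, was lower in NHD13 than in WT (log2 -2.65 ± 0.54) and higher in KO than in NHD13 (log2 1.78 ± 0.58, adjusted p = 0.0199), at 0.569 CPM in AML, 0.721 CPM in KO, 0.201 CPM in NHD13 and 1.32 CPM in WT. Csf1, the ligand of CSF1R, did not pass in the 4 comparisons on counts with TMM factors (adjusted p = 0.0749 for NHD13 against WT), but it was lower in NHD13 than in WT with upper-quartile factors (adjusted p = 0.0342) and in log2(FPKM + 1) (adjusted p = 0.00359). In log2(FPKM + 1) it was also higher in AML than in KO (adjusted p = 0.00323) and lower in KO than in WT (adjusted p = 0.0484). Its level was 5.11 CPM in AML, 4.19 CPM in KO, 3.84 CPM in NHD13 and 5.19 CPM in WT.

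Of 16 transcription factors of the monocyte choice and its rivals, 5 were higher and 10 lower in NHD13 than in WT. Of all genes, 25.3% were higher and 28.7% lower there. In KO against NHD13, 8 were higher and 5 lower, where 20.6% of all genes were higher and 20.3% lower. In AML against KO, 10 were higher and 4 lower, where 42.8% of all genes were higher and 39.5% lower. That split was 9 and 7 with a correction for gene length and 12 and 4 in log2(FPKM + 1). The medians were -1.09, 0.78 and 0.83 in log2. Irf8, which drives monocyte and dendritic cell fate, averaged 192 CPM in KO, 44.4 CPM in NHD13 and 225 CPM in WT, a log2 fold change of -2.34 ± 0.08 for NHD13 against WT and 2.11 ± 0.08 for KO against NHD13. Id2, an inhibitor of helix-loop-helix factors, moved the other way (log2 1.60 ± 0.08 and -1.93 ± 0.09). Gfi1b had the smallest p of the list for AML against KO and was 15.2-fold lower in AML, at 8.89 CPM in AML and 135 CPM in KO. Cebpa, the C/EBP factor of granulocyte and monocyte progenitors, was 25.4-fold higher in AML than in KO, at 228 CPM in AML and 8.98 CPM in KO.

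Of 24 genes of classical monocytes, 8 were higher and 11 lower in NHD13 than in WT, and 10 were higher and 8 lower in KO than in NHD13. Of all genes, 25.3% were higher and 28.7% lower in NHD13 than in WT, and 20.6% and 20.3% in KO than in NHD13. In AML against KO, 13 were higher and 10 lower (9 and 10 with upper-quartile factors), where 82.4% of all genes were called. The medians were -0.27, 0.02 and 0.30 in log2. Clec4a2, a C-type lectin receptor, had the smallest p for NHD13 against WT (log2 3.81 ± 0.09). Cybb, the catalytic subunit of the phagocyte oxidase, was 5.76-fold lower in KO than in NHD13. Fn1, fibronectin, and Mpeg1, the pore-forming perforin-2 of macrophages, were 27.5-fold and 26.0-fold higher in AML than in KO. Of 11 tested genes of patrolling monocytes, 1 was higher and 4 lower in NHD13 than in WT, and 3 were higher and 2 lower in KO than in NHD13. In AML against KO, 9 were higher and 1 lower (10 and 1 with a correction for gene length), where 42.8% of all genes were higher and 39.5% lower. The medians were -0.09, -0.40 and 2.45 in log2, the last being 1.54 with that correction. Itgax, which encodes CD11c and also marks dendritic cells, stood at 31.0 CPM in AML and 0.0795 CPM in KO (log2 8.58 ± 0.22). The sum over 14 dendritic cell markers was 2246 to 2296 CPM in AML, 202 to 213 CPM in KO, 119 to 142 CPM in NHD13, where Clec9a had no count, and 509 to 569 CPM in WT. The part of dendritic cells in the AML values was not tested.

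Of 18 tested genes of tissue macrophages, 4 were higher and 10 lower in NHD13 than in WT, where 25.3% of all genes were higher and 28.7% lower. In KO against NHD13, 4 were higher and 7 lower (4 and 4 in log2(FPKM + 1), with a median of -0.0057), where 20.6% of all genes were higher and 20.3% lower. In AML against KO, 13 were higher and 2 lower (10 and 4 with a correction for gene length), where 42.8% of all genes were higher and 39.5% lower. The medians were -1.36, -0.48 and 1.56 in log2, the last being 1.27 with that correction. In KO against WT, 1 was higher and 12 lower, and the complement genes C1qc and C1qb, which resident macrophages make, had log2 fold changes of -2.22 ± 0.20 and -2.104 ± 0.21. The apolipoprotein gene Apoe was 14.1-fold lower in NHD13 than in WT and 8.47-fold higher in KO than in NHD13, with 122 CPM in AML, 478 CPM in KO, 56.4 CPM in NHD13 and 793 CPM in WT.

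Fcgr3, the low-affinity receptor CD16, averaged 62.6 CPM in AML, 198 CPM in KO, 576 CPM in NHD13 and 298 CPM in WT, with log2 fold changes of 0.95 ± 0.06 for NHD13 against WT and -1.54 ± 0.06 for KO against NHD13. Of the lysosome genes, 11 of 14 were higher and 1 lower in NHD13 than in WT (9 and 3 in log2(FPKM + 1)), where Cd68 was lower, and the cathepsin gene Ctsb had log2 1.10 ± 0.06. In KO against NHD13, 1 of the 14 was higher and 6 were lower, but 5 and 5 in log2(FPKM + 1), where Cd68 was higher. In AML against KO, 3 were higher and 7 lower (7 and 7 in log2(FPKM + 1)), where Cd68 was lower, and in KO against WT, 9 were higher and 1 lower (4 and 3 in log2(FPKM + 1)), where Cd68 was higher. Of 12 genes of CSF1R signalling, 8 were higher and 2 lower in NHD13 than in WT (4 and 4 in log2(FPKM + 1)), 3 higher and 5 lower in KO than in NHD13 (3 and 3 in log2(FPKM + 1)), and 9 higher and 2 lower in AML than in KO. Their median in AML against KO was 1.31 in log2, and 0.66 with a correction for gene length (10 higher and 2 lower). Of 7 tested Ly6 genes other than Ly6c2, 1 was higher and 5 lower in NHD13 than in WT. The one that was higher, Ly6g, marks neutrophils (log2 4.63 ± 0.16), and Ly6a, which encodes the stem cell antigen Sca-1, had the smallest p (log2 -4.22 ± 0.14).

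**Figure D3:**
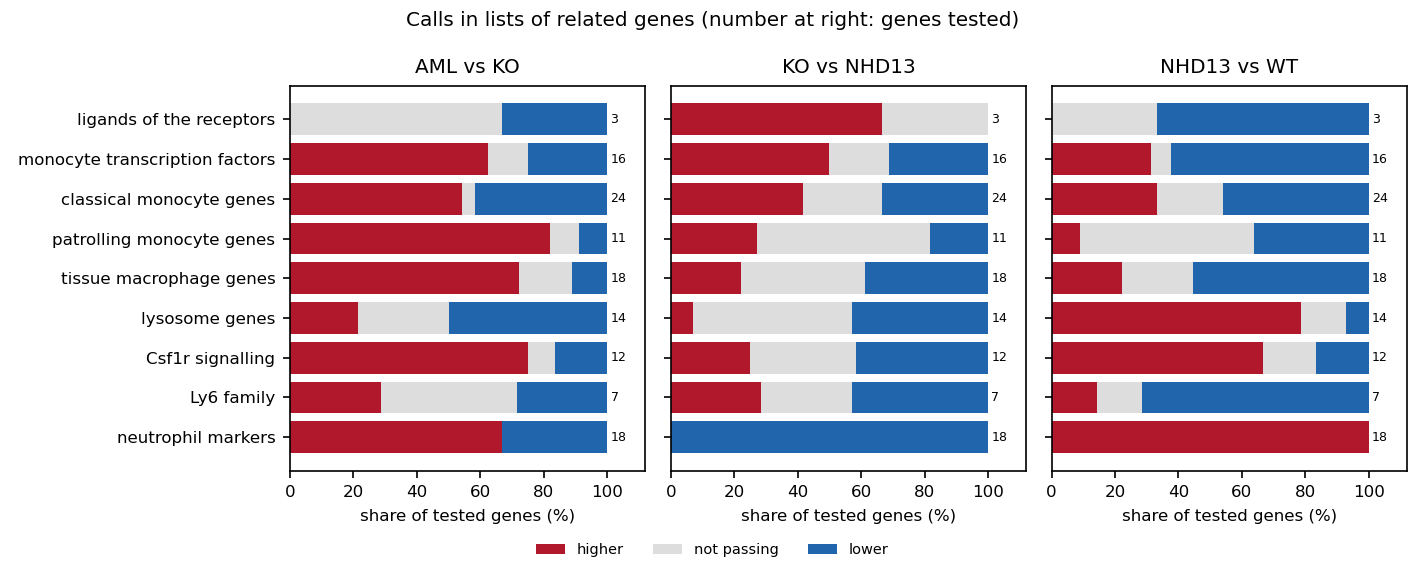
Share of the tested genes of each list described (horizontal axis, percent) called higher, not passing and called lower for AML against KO, KO against NHD13 and NHD13 against WT, with the number tested at the right of each bar. All 18 neutrophil markers are higher in NHD13 than in WT and lower in KO than in NHD13, whereas the monocyte lists hold genes of both directions.

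DNA methylation was compared by the authors between single libraries, so the differences have no replicate check, and their deposited tables give the coverage behind no region. In the authors' deposited tables, 8 of the 9 genes had a differentially methylated region within the gene or 5 kb of it for NHD13 against WT, where 64.0% of 14359 tested genes with coordinates had one. Of the 9 genes, 3 had a region more methylated in NHD13 (26.3% of all genes) and 7 a region less methylated (54.6%). For KO against NHD13 it was 4 of 9, with 56.0% of all genes, of which 3 had a region more methylated in KO (35.5% of all genes) and 1 a region less methylated (33.3%). For AML against KO it was 5 of 9, with 59.3% of all genes, all 5 with regions less methylated in AML (40.0% of all genes) and 0 with one more methylated (38.5%). Lyz2 and Lyz1 are not separate in these counts. For NHD13 against WT the same regions count for both. For AML against KO, chr10:117285130-117285434 counts for both, and Lyz1 also held chr10:117288579-117288639. The counts moved with the window and so did their background. Within the gene only, 5 of the 9 genes had a region for NHD13 against WT (49.6% of all genes), 4 for KO against NHD13 (43.0%) and 4 for AML against KO (45.7%). Within 20 kb it was 9 (83.1%), 9 (74.1%) and 8 (80.3%) in the same order, and with a difference of at least 30 points within 5 kb it was 4 (34.7%), 4 (25.1%) and 2 (29.3%). The direction followed the tables as a whole: of all regions in the authors' deposited tables, 81.6% were less methylated in NHD13 than in WT, 77.6% were more methylated in KO than in NHD13, and 77.8% were less methylated in AML than in KO. Ccr2, which had the largest RNA difference between KO and NHD13 after Lyz1, had 0 regions within 5 kb in the authors' deposited tables of the 3 comparisons.

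Ly6c2 held a region within the gene that changed in all 3 comparisons. Region chr15:75110307-75110989, which begins 982 bases past the start and holds 17 CpG sites, was methylated at 38.4% in NHD13 and 81.9% in WT in the authors' deposited table. The overlapping chr15:75109976-75110989 stood at 80.6% in KO and 39.7% in NHD13 in the authors' deposited table. Likewise chr15:75110556-75110989 stood at 37.7% in AML and 79.7% in KO in the authors' deposited table. NHD13 and AML, the least methylated libraries here, had the highest and the lowest Ly6c2 RNA of the 4 groups. The upstream window printed above holds no CG and lies outside these regions.

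Lyz2 and Lyz1 share their flanking regions. In the authors' deposited table of NHD13 against WT, chr10:117285130-117285211, 2858 bases upstream of Lyz2 and 2584 bases beyond the end of Lyz1, was methylated at 39.6% in NHD13 and 70.8% in WT. The authors' deposited table of AML against KO gives a longer region there, chr10:117285130-117285434, at 29.8% in AML and 57.6% in KO. One region 5447 bases upstream of Lyz1, chr10:117298315-117298808 with 16 CpG sites, is listed with the same bounds in all 3 of the authors' deposited tables. It lies outside the 5 kb rule and is not among the regions counted within 5 kb. It stood at 51.8% in NHD13 and 87.8% in WT, at 84.0% in KO and 51.8% in NHD13, and at 46.9% in AML and 84.0% in KO, by the authors' deposited tables. It was low in NHD13 and AML, the groups with the higher Lyz1 RNA (63 and 50 counts), and high in KO and WT (3 and 14 counts). This is an order over 4 bisulfite libraries that carries no test. The Ly6c2 region above had the same order, although AML had the lowest Ly6c2 RNA. Most regions in the authors' deposited tables also changed in these directions.

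At Cd68 the region lay on the start itself. In the authors' deposited table of NHD13 against WT, chr11:69665779-69666275, which covers the last 105 bases of the printed window and 2 of its CG, was methylated at 44.9% in NHD13 and 68.8% in WT. Inside the gene, chr11:69665453-69666059, which begins 111 bases past the start, stood at 33.4% in KO and 65.5% in NHD13 in the authors' deposited table. The regions overlap in part and hold 17 and 24 CpG sites, so 44.9% and 65.5% in NHD13 are not of the same sites. A further region 1065 bases upstream, chr11:69667235-69667286 with 5 CpG sites, was more methylated in NHD13, at 88.4% in NHD13 and 68.1% in WT in the authors' deposited table. That region overlaps the neighbouring gene Eif4a1. Cd68 was the only one of the 9 genes with a region less methylated in KO than in NHD13 within 5 kb in the authors' deposited tables.

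Cx3cr1 and Adgre1 carried regions within the gene. Within Cx3cr1, chr9:120055741-120056587 stood at 50.2% in NHD13 and 77.7% in WT in the authors' deposited table. Its neighbour chr9:120056026-120056632, which overlaps it, stood at 83.9% in KO and 49.6% in NHD13 in the authors' deposited table. At Adgre1, chr17:57468912-57469202 stood at 39.9% in NHD13 and 85.3% in WT in the authors' deposited table, and chr17:57468855-57469202 at 90.1% in KO and 46.4% in NHD13. RNA of Cx3cr1 and of Adgre1 had opposite directions in NHD13 against WT while both regions were less methylated in NHD13. A second region within Adgre1, chr17:57432994-57433131, was more methylated in NHD13, at 96.1% in NHD13 and 64.1% in WT in the authors' deposited table. Fcgr1 had 3 regions more methylated in NHD13 than in WT in the authors' deposited table, of which chr3:96283723-96284130 stood at 87.4% in NHD13 and 63.6% in WT. Csf1r had 1 region, of 4 CpG sites and 2118 bases outside the gene, at 74.4% in NHD13 and 96.4% in WT in the authors' deposited table.

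**Figure D4:**
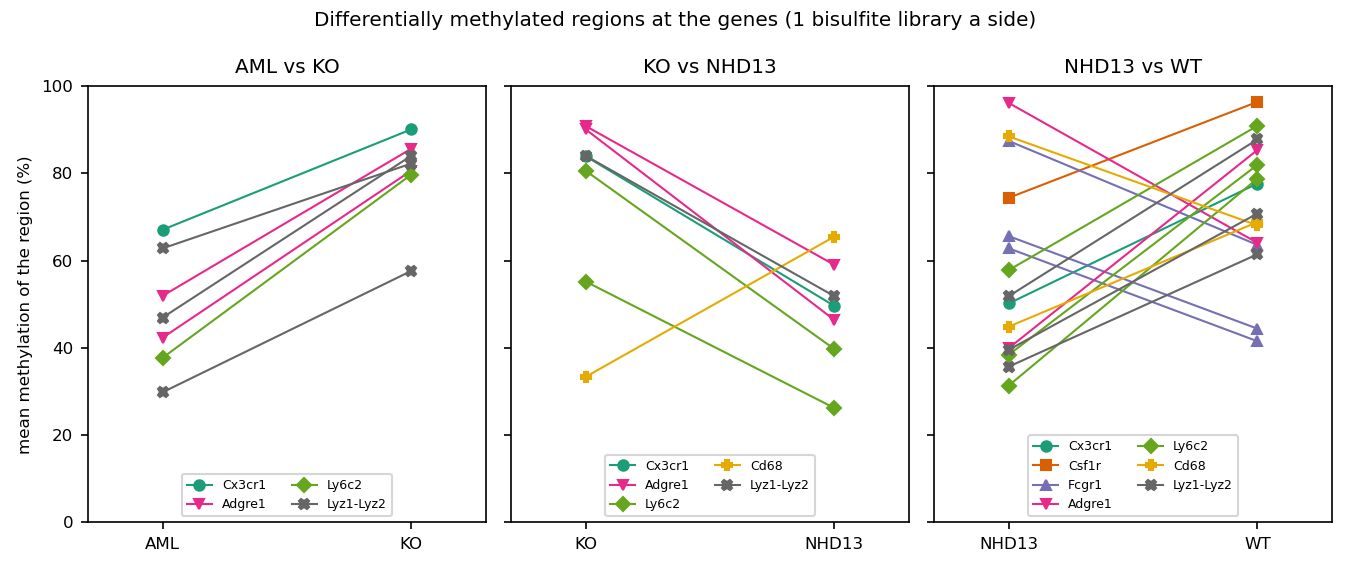
Mean methylation (vertical axis, percent) of each region at the genes in the authors' deposited tables, joined between the 2 libraries compared, for AML against KO, KO against NHD13 and NHD13 against WT; each line is 1 region, and Lyz1-Lyz2 stands for regions at either lysozyme gene, including the one 5447 bases upstream of Lyz1. All lines are lower in AML than in KO, and for KO against NHD13 the Cd68 line alone is lower in KO, at 33.4% in KO and 65.5% in NHD13.

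H3K36me3 is laid down along transcribed gene bodies by SETD2. In the KO AML library, 0 of the 9 genes had a peak within the gene, where 42.9% of 14359 genes had one, and in the NHD13 AML library 6 of 9 had one, where 69.1% of all genes did. Of the 9929 genes with a peak in NHD13 AML, 60.1% also had one in KO AML. The KO AML library had 16902 peaks over 28415626 bases in all, and the NHD13 AML library had 30953 over 193042873 bases. Depth and input of these libraries are unknown here, and with 1 library a group there is no test. Fold enrichments are the authors' own.

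Cd68 was covered over 100% of its span in NHD13 AML, by a peak of 7830 bases with a 7.62-fold enrichment that also covers the neighbouring gene Eif4a1. Lyz2 was covered over 71.1%, Csf1r over 58.3% by 5 peaks, the last of which runs on over the neighbouring gene Hmgxb3, and Ly6c2 over 56.2%, with a 6.42-fold enrichment of its peak. Ccr2 was covered over 17.6% and Adgre1 over 1.33%, while Cx3cr1, Fcgr1 and Lyz1 were covered over 0%. Csf1r, Ly6c2, Cd68 and Lyz2 belong to the quartile of genes with the highest mean FPKM in AML, in which 74.3% of genes had a peak in KO AML and 93.6% in NHD13 AML. Cx3cr1, Fcgr1 and Lyz1 belong to the lowest quartile, in which 7.74% had one in KO AML and 23.9% in NHD13 AML. Within 5 kb, 3 of the 9 genes had a KO AML peak, where 51.2% of all genes had one. These KO AML peaks stood outside the genes, 666 bases from Ccr2, 649 and 4994 bases from Csf1r and 1381 bases from Cd68, the last of them over Eif4a1. RNA of NHD13 AML cells is not analysed here, so a lower RNA level of these genes in KO AML cells cannot be told apart from a lower mark.

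**Figure D5:**
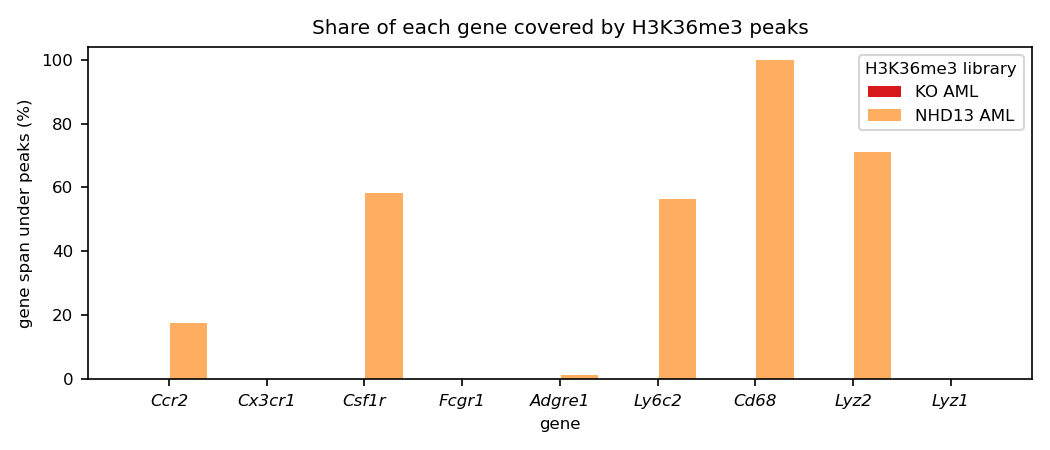
Share of the span of each gene under H3K36me3 peaks (vertical axis, percent) in the 1 KO AML library and the 1 NHD13 AML library. All 9 genes are at 0% in KO AML, and in NHD13 AML Cd68 is at 100%, Lyz2 at 71.1%, Csf1r at 58.3% and Ly6c2 at 56.2%.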

How the data were processed

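RNA-seq counts per gene were deposited by the authors as a raw table, and FPKM values were deposited by the authors beside them. Recomputing FPKM from count, length and library total gave the deposited values with a relative difference of 0, so FPKM carries no correction for composition. Per the submitters' processing notes, tools used include HISAT2 2.0.5, HTSeq 0.9.1, MACS2 2.1.1.20160309 and Bismark 0.19.0, on mm10. Per the file headers, the authors deposited for each differentially methylated region the mean methylation of each side as a fraction, a score and its number of CpG sites; the caller is not named in the sources used. Each broad peak the authors deposited carries a score, a fold enrichment and the −log10 of p and q. The side of each methylation value was checked on regions shared between tables: values of the shared library differed by a median of 0.000119 points over 4032 regions and of 0.000936 points over 2467.

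Counts were tested with edgeR 4.0.16 in R 4.3.3: TMM factors (0.798 to 1.25), filterByExpr (16233 of 53946 genes kept), 1 model over 12 libraries with 8 residual degrees of freedom, the robust quasi-likelihood F test and Benjamini-Hochberg adjustment at 0.05. The code was tested on simulated data with 200 changed genes. No replicates were merged: the chi-square statistic of replicate pairs, divided by its degrees of freedom, was 1.97 to 30.4, highest for WT replicate 1 against the other 2. CPM of the lists, orders and correlations uses TMM factors; CPM of Setd2, Xist, Eif2s3y and the marker sums is per library total. Alternatives were upper-quartile factors, DESeq2 1.42.0, no filter, limma 3.58.1 on log2(FPKM + 1) and log2(FPKM + 0.1), only the 6 libraries compared, a gene length offset, a replicate block and leaving out each library. Gene spans came from RefSeq on GRCm38.p6, the build of mm10, matched by symbol for 14359 tested genes; methylated regions were assigned within the gene or 5 kb of it, and peaks within the gene, with an overlap of at least 1 bp. For Ly6c2, the first of 2 RefSeq windows was used.

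Named genes are the 9 members, the 2 genes of smallest p in each list and comparison, all genes of lists of 6 or fewer, and the genes of most similar pattern, of which the text prints part. The members and lists were chosen with earlier results of these data known. A list that was fitted with the others is not reported here. Strandedness of the counting is not stated, so reads of antisense partners cannot be told apart.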

Additional observations from a re-analysis of the deposited data

How the results depend on the processing

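Over the 4 comparisons planned and their alternatives, 503 log2 fold changes of the 9 genes were recomputed: 478 stayed on their side of the threshold, of which 4, called in neither setting, changed sign, 14 kept the direction and lost the call, 9 gained a call, and 2 reversed. The 2 were Ccr2 for AML against KO, at 0.015 in log2(FPKM + 1) (adjusted p = 0.846) and 0.017 in log2(FPKM + 0.1) (adjusted p = 0.861), against -0.40 on counts. Of 252 values in the 2 added comparisons 1 reversed, Cd68 for AML against WT with upper-quartile factors (log2 -0.18, adjusted p = 0.0192, against 0.03 and no call). With the gene length offset that value was 1.13 (adjusted p = 3.31e-11). The cause was not tested.

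The number of the 9 genes called, leaving out 1 library at a time, was 8 to 9 for NHD13 against WT, 8 to 9 for KO against NHD13, 7 to 7 for AML against KO (but 5 with the gene length offset, 6 on the FPKM scale and 8 with upper-quartile factors), 6 to 6 for KO against WT, 7 to 7 for AML against NHD13 and 7 to 8 for AML against WT. The number of all genes called ran from 8174 to 9131, 5756 to 6339, 13128 to 13347, 5297 to 6326, 13125 to 13387 and 13632 to 14008 in the same order. For KO against WT, 4 of the 9 genes were called in log2(FPKM + 1) and 5 in log2(FPKM + 0.1).

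On the FPKM scale the median log2 of all genes was -0.36 for NHD13 against WT, 0.17 for KO against NHD13, 0.42 for AML against KO and -0.18 for KO against WT in log2(FPKM + 0.1). Calls of all genes split into 4112 higher and 4652 lower for NHD13 against WT, but 1683 and 8300 in log2(FPKM + 1) and 3368 and 5298 with upper-quartile factors. For KO against NHD13 the split was 3340 and 3295, and 4931 and 1922 in log2(FPKM + 1). For AML against KO it was 6953 and 6415, 8433 and 4959 in log2(FPKM + 1), 6332 and 7056 with upper-quartile factors and 6254 and 6696 with the gene length offset, where the median of all genes was -0.11 and -0.05 in the last 2, against 0.07. For KO against WT it was 2784 and 3241, 1176 and 5404 in log2(FPKM + 1), and 3394 and 2837 with DESeq2.

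Same-numbered replicates deviated together by a correlation of -0.09 to 0.11, so the numbers were not taken to pair the samples. The replicate block changed 0 of 54 calls of the 9 genes and called 8568, 6431, 13238, 5789, 13254 and 13629 genes in all, in the order above.

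In the authors' deposited tables, genes with a methylated region numbered 5 within the gene only and 4 with a difference of at least 30 points for NHD13 against WT (8 as reported), 9 within 20 kb for KO against NHD13 (4), and 8 within 20 kb and 2 with at least 30 points for AML against KO (5). Genes with a KO AML peak numbered 3 within 5 kb and 0 within the gene. The share of all genes under each rule is given above. Counts were low for Lyz1, at 0 to 27 a library, and for Fcgr1, at 34 over the 3 NHD13 libraries, and the effect of depth on their calls was not tested.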
